A study of Mus musculus with 9 samples.

Results

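The genes described here are 10 markers of T cells and cytotoxic lymphocytes: the T cell receptor complex genes Cd3d, Cd3e and Cd3g, the coreceptor genes Cd4 and Cd8a, the granzyme genes Gzma and Gzmb, the lymphocyte granule and receptor genes Nkg7 and Klrd1, and the regulatory T cell factor Foxp3. They were taken as a list of symbols, and each symbol was matched to the transcript cluster (the array's unit for one gene) with the highest mean over all arrays. Of the 10 symbols, 9 matched, each to 1 transcript cluster, out of 22206 transcript clusters tested. Foxp3 had no match in the tables used here and was not analysed here. The samples were salivary glands of 12-week-old female C57BL6/J mice, identified as submandibular in the title of the series and measured on Clariom S arrays. Group 1 held 3 glands taken 14 days after partial resection, group 2 held 3 glands taken 3 days after partial resection, and group 3 held 3 glands taken 3 days after mock surgery. All 9 mice had surgery. Day 14 has no mock glands of its own here, and its comparison with the day 3 mock glands therefore mixes the resection with the longer time after surgery.

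The T cell receptor signals through the CD3 chains, which carry the activation motifs that the receptor's own antigen-binding chains lack. CD4 and CD8 bind class II and class I MHC molecules and divide T cells into helper and killer classes. Cytotoxic T cells and natural killer (NK) cells kill by releasing granules filled with perforin and granzymes. In salivary glands, lymphocytes are a minor resident population, and they accumulate in autoimmune disease of the gland.

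Values are log2 levels as deposited, and differences are given on that scale, which is not calibrated to a fold. The gland's own secretory genes Car6, Klk1, Pip and Prol1 read 19.92 to 19.93 on all 9 arrays, at the ceiling of the file, where a change cannot be seen. The lymphocyte genes gave low signals. On all 9 arrays, each of the 9 genes lay below the 95th percentile of the array's 5222 negative-control rows, which was 8.21 to 8.52. Cd3e, Cd3g and Cd8a lay below the median of those rows (4.41 to 4.77) on all 9 arrays, whereas Cd4, Gzma, Klrd1 and Nkg7 lay above it on all 9. In these female mice, 3 genes of the Y chromosome (Uty, Kdm5d, Eif2s3y), for which there is no template, read 2.11 to 3.13. The files hold no detection calls, so a low value is not a statement that the RNA was absent. In whole-gland RNA, fewer cells of a type and less RNA per cell cannot be told apart. Over all transcript clusters, day 3 resected glands differed from mock glands at 1092 that were higher and 301 that were lower (limma, adjusted p under 0.05), with 973 and 452 after quantile normalisation and 1013 and 480 after centring on array medians.

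On day 3 after resection, Gzma and Cd3e were higher than after mock surgery, by 1.20 ± 0.31 and 1.04 ± 0.25 on the log2 scale (SE, n = 3 arrays a group). On these arrays Cd3e read below the median of the negative-control rows, and its mock values, 2.85 to 3.41, overlapped the readings of the Y chromosome genes. Gzma and Cd3e were the 2 of 9 lymphocyte genes past the threshold, and 0 of 9 fell. That is 22.2% of the genes, beside 6.27% of all transcript clusters called in the same comparison, 4.92% higher and 1.36% lower. Levels of the day 3 resected and mock arrays did not overlap for 5 of 9 genes, Cd3e, Cd3g, Cd4, Gzma and Nkg7, all higher after resection, beside 11.2% of all transcript clusters. On day 14, 0 of 9 genes passed the test against mock, beside 0.153% of all transcript clusters. Gzma was lower on day 14 than on day 3 after resection (limma adjusted p = 0.0466). That call was kept in 1 of 9 fits that left out an array.

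**Figure D1:**
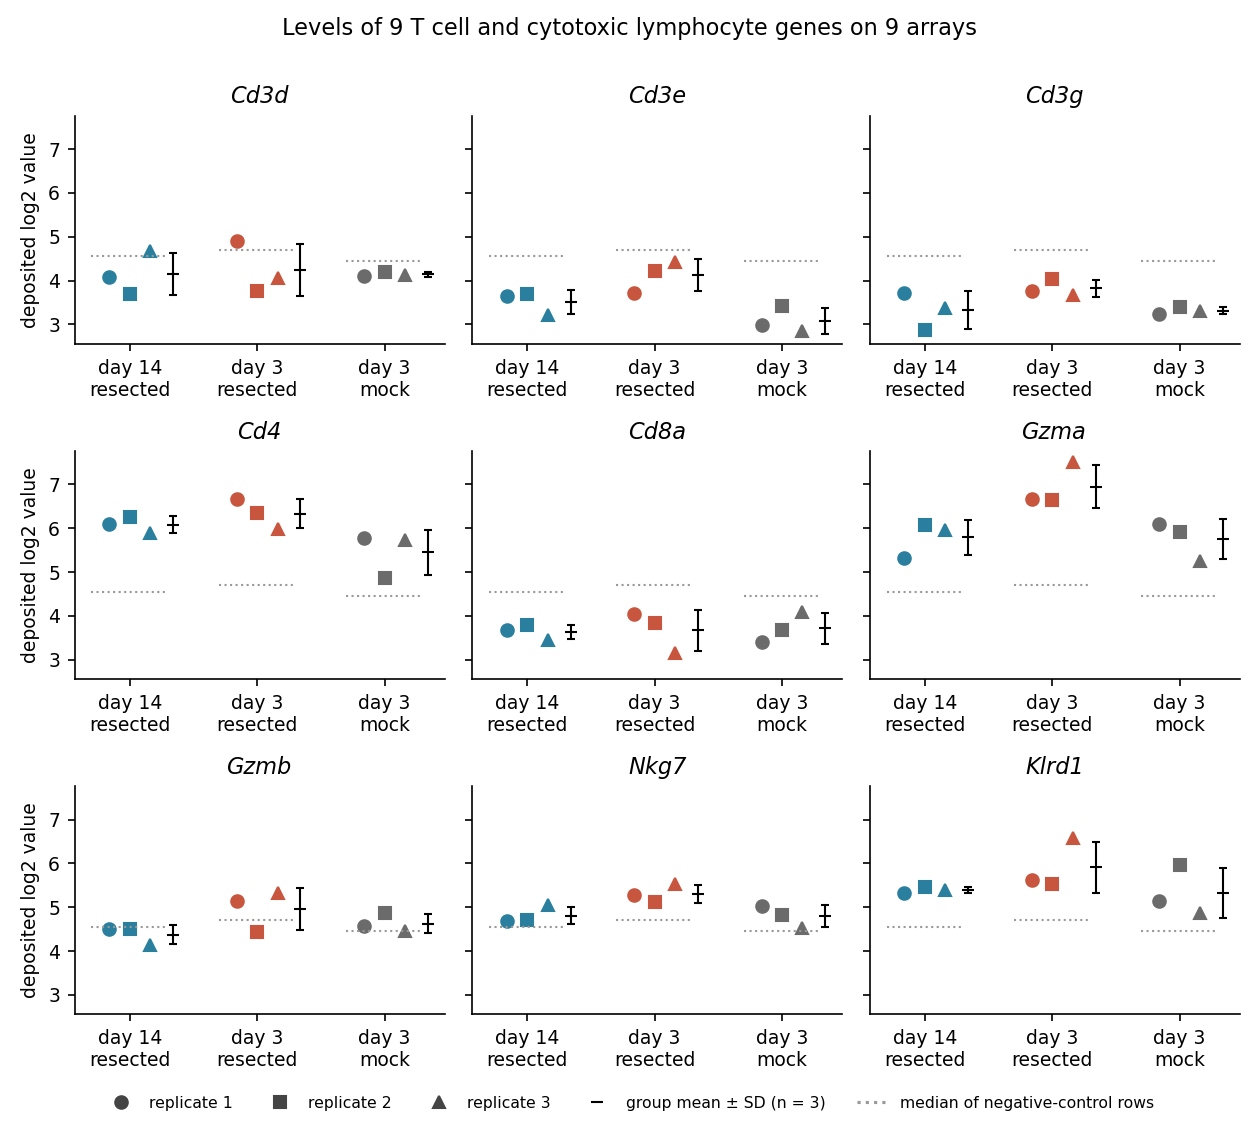
Deposited log2 level of each of the 9 genes on each array, with day 14 resected, day 3 resected and day 3 mock glands from left to right. Marker shapes give the replicate number, black bars the group mean ± SD (n = 3), and dotted lines the mean over the group's arrays of the median of the negative-control rows; levels of different genes are not on a common scale. Day 3 resected arrays stand above the mock arrays for Cd3e, Cd3g, Cd4, Gzma and Nkg7, and the groups overlap for the other 4 genes.

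The CD3 genes lie side by side on chromosome 9, in the order Cd3g, Cd3d, Cd3e, with no other protein-coding gene between them in RefSeq's annotation. Cd3e passed the test on day 3 while Cd3g and Cd3d did not, and the differences between the 3 genes were not tested. Cd3e, whose product pairs with either of the other CD3 chains, read 3.72, 4.22 and 4.43 in day 3 resected glands, against 2.99, 3.41 and 2.85 in mock glands (transcript cluster TC0900002189.mm.2). All 3 resected arrays read above all 3 mock arrays. The difference of 1.04 ± 0.25 passed the threshold (limma adjusted p = 0.0272, 95% interval 0.49 to 1.59). On all of these arrays the level was below the median of the negative-control rows. Cd3g, the chain that joins Cd3e in one of the receptor's dimers, read 3.76, 4.04 and 3.67 in day 3 resected glands, against 3.24, 3.39 and 3.29 in mock glands (TC0900002188.mm.2). These groups did not overlap either, but the difference of 0.51 ± 0.24 did not pass (adjusted p = 0.276, interval -0.01 to 1.03). Cd3d, which pairs with Cd3e in the other dimer, read 4.90, 3.77 and 4.06 in day 3 resected glands, against 4.10, 4.20 and 4.12 in mock glands (TC0900000529.mm.2). The mock arrays were close together, and the resected arrays lay on both sides of them. Its difference was 0.10 ± 0.31 (adjusted p = 0.905), with a 95% interval of -0.57 to 0.77.

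The promoters of the CD3 genes and of Gzma are shown because Cd3e and Gzma were the 2 genes called on day 3 and Cd3d and Cd3g are the neighbours of Cd3e. Each window runs from 250 bases before to 50 bases after the start of the RefSeq gene on build GRCm38.p6, 5′ to 3′ on the gene's strand. Of the 9 genes, 7 have such a window in the table used. Capitals mark core motifs of factors active in T cells, searched on both strands: TGTGGT for RUNX factors, AGGAAG for ETS factors and AGATAA for GATA factors.
Cd3e, chr9:45009562-45009861, minus strand: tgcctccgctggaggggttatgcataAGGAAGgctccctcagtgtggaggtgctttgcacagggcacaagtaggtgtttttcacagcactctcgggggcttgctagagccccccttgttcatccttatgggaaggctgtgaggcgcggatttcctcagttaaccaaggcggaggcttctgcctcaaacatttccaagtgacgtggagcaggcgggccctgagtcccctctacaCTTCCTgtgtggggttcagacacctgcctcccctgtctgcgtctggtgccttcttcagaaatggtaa
Cd3d, chr9:44981536-44981835, plus strand: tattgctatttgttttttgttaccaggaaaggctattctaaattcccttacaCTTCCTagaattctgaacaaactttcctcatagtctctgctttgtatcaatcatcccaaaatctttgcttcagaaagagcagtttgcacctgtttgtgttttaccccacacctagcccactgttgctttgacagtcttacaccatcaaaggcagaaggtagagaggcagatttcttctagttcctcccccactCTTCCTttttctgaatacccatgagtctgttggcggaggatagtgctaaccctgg
Cd3g, chr9:44980382-44980681, minus strand: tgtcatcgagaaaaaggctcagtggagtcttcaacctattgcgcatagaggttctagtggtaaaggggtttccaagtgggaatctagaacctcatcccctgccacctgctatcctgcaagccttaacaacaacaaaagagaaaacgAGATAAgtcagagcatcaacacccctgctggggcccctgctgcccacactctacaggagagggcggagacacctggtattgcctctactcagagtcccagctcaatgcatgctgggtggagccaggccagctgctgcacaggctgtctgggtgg
Gzma, chr13:113100932-113101231, minus strand: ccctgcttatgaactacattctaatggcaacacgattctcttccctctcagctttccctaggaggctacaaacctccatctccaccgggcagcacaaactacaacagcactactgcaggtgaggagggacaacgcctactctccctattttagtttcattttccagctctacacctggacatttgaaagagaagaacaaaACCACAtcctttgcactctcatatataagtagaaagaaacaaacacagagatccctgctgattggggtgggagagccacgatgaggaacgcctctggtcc

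Letters of the ETS motif occurred 2 times in the window of Cd3e and 2 times in that of Cd3d, and 35.4% of 32851 promoter windows of the same length hold it. The RUNX letters occurred 1 time, in the window of Gzma (16.8% of all windows hold them), and the GATA letters 1 time, in that of Cd3g (11.2%). A match is a match of letters and no evidence of binding.

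Of the coreceptor genes, Cd4 was the one with a difference between groups that did not overlap. Cd4, the helper T cell coreceptor, which some myeloid cells also express, read 6.66, 6.34 and 5.99 in day 3 resected glands, against 5.77, 4.85 and 5.73 in mock glands (TC0600003124.mm.2). Mock replicate 2 was the lowest of all 9 arrays for this gene. The difference of 0.88 ± 0.28 did not pass (adjusted p = 0.0921, interval 0.28 to 1.48), and it was 0.58 without mock replicate 2. Cd8a, the coreceptor of killer T cells, which one class of dendritic cells also carries, read 4.04, 3.84 and 3.14 in day 3 resected glands, against 3.39, 3.67 and 4.09 in mock glands (TC0600000827.mm.2). The groups overlapped fully. Its difference was -0.04 ± 0.27 (adjusted p = 0.962, interval -0.63 to 0.54) and turned to 0.22 without day 3 resected replicate 3.

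Gzma encodes granzyme A, a granule protease of NK cells and killer T cells. Its level was 6.67, 6.66 and 7.52 in day 3 resected glands, against 6.11, 5.90 and 5.24 in mock glands (TC1300002691.mm.2). Day 3 resected replicate 3 was the highest and mock replicate 3 the lowest of all 9 arrays, and the groups did not overlap. The difference of 1.20 ± 0.31 passed (adjusted p = 0.0400, interval 0.52 to 1.88). Gzmb encodes granzyme B, the protease that starts caspase cleavage in target cells. It read 5.15, 4.43 and 5.33 in day 3 resected glands, against 4.56, 4.87 and 4.45 in mock glands (TC1400002120.mm.2). Replicate 2 of the resected glands read below every mock array. Its difference of 0.34 ± 0.26 did not pass (adjusted p = 0.548, interval -0.22 to 0.90), and it was 0.16 without day 3 resected replicate 3 and 0.61 without replicate 2. Gzmb has close paralogues in a gene cluster, and whether its probes also bind their transcripts was not tested.

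Nkg7 encodes a granule membrane protein of NK and killer T cells. Its level was 5.27, 5.11 and 5.52 in day 3 resected glands, against 5.02, 4.83 and 4.52 in mock glands (TC0700000759.mm.2). The groups did not overlap. The difference of 0.51 ± 0.22 did not pass (adjusted p = 0.235, interval 0.03 to 0.99). Klrd1 encodes CD94, the shared chain of the NKG2 receptors of NK cells. It read 5.62, 5.54 and 6.57 in day 3 resected glands, against 5.14, 5.96 and 4.88 in mock glands (TC0600001538.mm.2). Mock replicate 2 lay above 2 of the 3 resected arrays. Its difference was 0.59 ± 0.32 (adjusted p = 0.360, interval -0.11 to 1.28), and it was 0.26 without day 3 resected replicate 3, 0.36 without mock replicate 3 and 0.90 without mock replicate 2.

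Of the 9 genes, 8 had a difference above zero on day 3, beside 43.1% of all transcript clusters. The median difference over the 9 genes was 0.51, and over all transcript clusters -0.06. At an unadjusted p under 0.05, 4 of 9 passed (Cd3e, Cd4, Gzma and Nkg7), beside 18.6% of all transcript clusters.

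**Figure D2:**
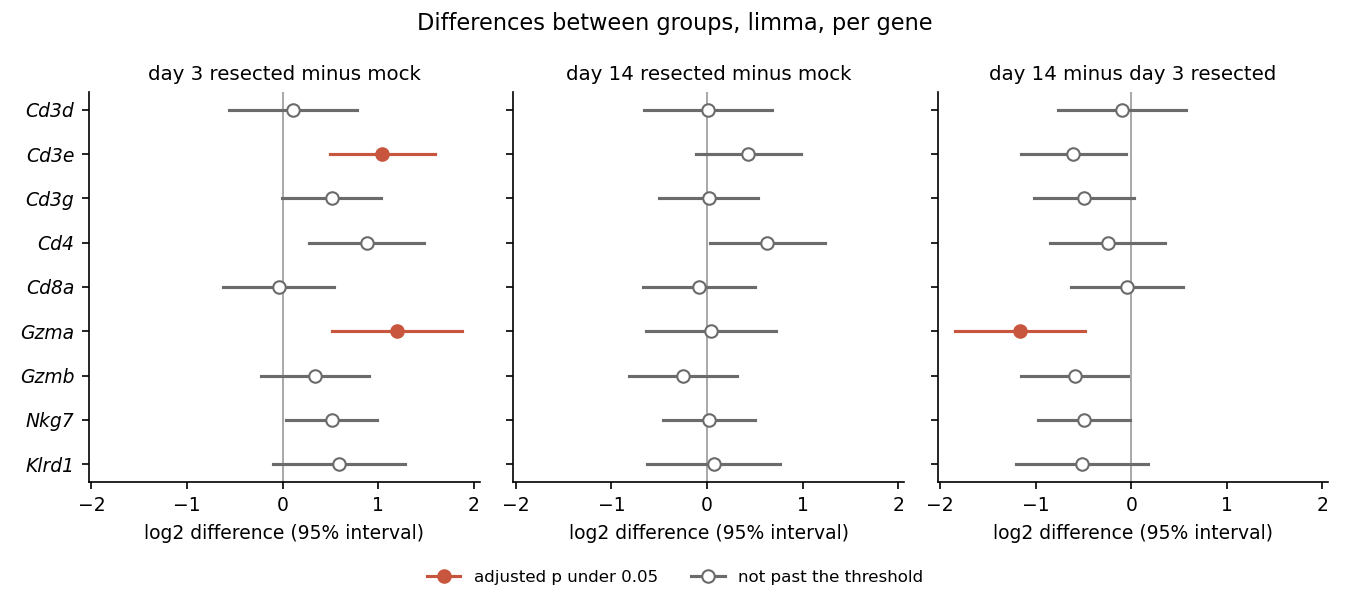
Log2 difference of each gene with its 95% interval (limma, 9 arrays in 1 fit), for day 3 resected minus mock, day 14 resected minus mock and day 14 minus day 3 resected. Filled points passed an adjusted p of 0.05: Cd3e and Gzma in the left panel, 0 genes in the middle panel and Gzma in the right panel.

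Between day 14 resected and mock glands 0 of 9 genes passed in limma, beside 0.153% of all transcript clusters. At an unadjusted p under 0.05, 1 of 9 passed (Cd4), beside 8.18%. The difference was above zero for 7 of 9 genes, beside 49.8%. Gzma read 5.32, 6.08 and 5.97 in day 14 resected glands, all inside the range of the mock arrays, and differed from mock by 0.04 ± 0.31 (adjusted p = 0.989, interval -0.64 to 0.72). Cd3e read 3.64, 3.70 and 3.21 in day 14 resected glands and differed from mock by 0.43 ± 0.25 (adjusted p = 0.701, interval -0.12 to 0.98). Its 3 arrays on day 14 all read below the lowest day 3 resected array, and 1 of them read below mock replicate 2. Cd4 was the 1 gene whose day 14 resected and mock arrays did not overlap, beside 6.03% of all transcript clusters that were higher without overlap. It read 6.10, 6.26 and 5.89 in day 14 resected glands and differed from mock by 0.63 ± 0.28 (adjusted p = 0.585, interval 0.03 to 1.23). Without mock replicate 2 that difference was 0.33. For the other 6 genes the difference from mock ran from -0.25 for Gzmb to 0.07 for Klrd1, and their 95% intervals lay between -0.81 and 0.76.

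Between the resected groups, all 9 genes were lower on day 14 than on day 3 by their means, beside 56.5% of all transcript clusters that had a difference above zero. Gzma fell by 1.16 ± 0.31 on the log2 scale (adjusted p = 0.0466, interval -1.84 to -0.48), and the highest day 14 array read 6.08, against 6.66 for the lowest day 3 array. It was the 1 gene of 9 past the threshold, 11.1%, beside 6.28% of all transcript clusters called and 4.88% called lower. At an unadjusted p under 0.05, 4 of 9 passed (Cd3e, Gzma, Gzmb and Nkg7), beside 18.9%. Both differences from mock use the same day 3 mock arrays. These cancel in the size of this contrast but still enter the fit's estimate of the spread, and so the calls. Without mock glands on day 14, the contrast cannot separate a change in the effect of resection from the time after surgery. The groups did not overlap for 4 of 9 genes, Cd3e, Gzma, Nkg7 and Klrd1, beside 12.5% of all transcript clusters that were lower without overlap. Klrd1 read 5.33, 5.47 and 5.39 in day 14 resected glands, a narrow range below all 3 day 3 arrays. Its difference of -0.52 ± 0.32 did not pass (adjusted p = 0.429) and was -0.19 without day 3 resected replicate 3. Nkg7 read 4.69, 4.70 and 5.05 in day 14 resected glands and differed by -0.49 ± 0.22 (adjusted p = 0.253). Cd3e differed by -0.61 ± 0.25 (adjusted p = 0.212). Gzmb read 4.51, 4.49 and 4.13 in day 14 resected glands and differed by -0.59 ± 0.26 (adjusted p = 0.240). Cd3g, at 3.72, 2.88 and 3.38 on day 14, differed by -0.49 ± 0.24 (adjusted p = 0.291), and 2 of its 3 day 14 arrays read below the day 3 arrays. Cd3d, at 4.08, 3.70 and 4.67, and Cd8a, at 3.66, 3.78 and 3.45, had differences of -0.10 and -0.04 with overlapping groups. The 3 comparisons share arrays, so their values are given side by side and not as independent results.

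By the means, day 3 resected glands were highest and mock glands lowest for Cd3d, Cd3e, Cd3g, Cd4, Gzma, Nkg7 and Klrd1. For Cd3d, Cd3g, Gzma, Nkg7 and Klrd1 the day 14 and mock means were within 0.07 of each other, less than the SD of at least one of the groups. Gzmb had its lowest mean on day 14, and Cd8a had its highest in mock glands, with group means of 3.63 ± 0.17, 3.67 ± 0.47 and 3.72 ± 0.35 (SD, n = 3) on day 14, on day 3 and after mock surgery, which did not differ beyond their spread. Single arrays carried part of these differences. Day 3 resected replicate 3 gave the highest value of all 9 arrays for 5 genes, Cd3e, Gzma, Gzmb, Nkg7 and Klrd1, and the lowest for Cd8a. Mock replicate 3 gave the lowest value for 4 genes, Cd3e, Gzma, Nkg7 and Klrd1, and the highest for Cd8a. Within groups, the pooled SD of the genes ran from 0.22 for Nkg7 to 0.47 for Klrd1, and the median over all transcript clusters was 0.31. The mean log2 level over the 9 genes was 4.56, 4.56 and 4.57 in day 14 resected glands, 5.09, 4.88 and 5.14 in day 3 resected glands and 4.48, 4.57 and 4.35 in mock glands.

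Genes with the most similar profile over the 9 arrays were sought among 18449 named genes, with Pearson's r as the measure of likeness and no test, since the arrays share the difference between groups and the highest values of many were picked. Closest to the mean profile of Cd3d, Cd3e and Cd3g were Eftud2 (r = 0.96), H2ac20 (0.95), Sh3bgrl3 (0.95), Fth1 (0.95) and Psme2 (0.94). Closest to that of Gzma, Nkg7 and Klrd1 were Cmklr1 (0.98), Dse (0.98), Slfn3 (0.98), Aunip (0.97) and B4galt5 (0.97). Neither set of 5 holds a gene from the lists of T cell and NK cell genes used here. On day 3 against mock, the smallest adjusted p in the first set was that of H2ac20, a histone gene (1.57, limma adjusted p = 0.00142). In the second set it was that of B4galt5, a galactosyltransferase (2.27, adjusted p = 0.00397). Eftud2, Psme2, Dse and Slfn3 also passed. Sh3bgrl3 (adjusted p = 0.0763), Fth1 (0.0614), Cmklr1 (0.108) and Aunip (0.0959) did not.

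Other T cell and NK cell genes were counted in 7 lists, to be read beside 4.92% of all transcript clusters called higher on day 3, 1.36% called lower and 18.6% at an unadjusted p under 0.05. Of 17 measured genes of receptor signalling and the T cell surface (20 listed), 3 rose and 0 fell, with a median difference of 0.11. The 3 were Thy1, which fibroblasts and nerves also carry, Fyb and Lcp2, adaptor proteins that myeloid cells also use. Thy1 rose by 2.64 ± 0.53 (adjusted p = 0.00866), with 7.60, 8.57 and 9.96 in day 3 resected glands, against 6.98, 6.05 and 5.18 in mock glands. Fyb rose by 2.41 ± 0.30 (adjusted p = 3.06e-04), with 6.83, 7.13 and 7.74 in day 3 resected glands, against 4.23, 5.30 and 4.93 in mock glands. Lcp2 rose by 1.21 ± 0.28 (adjusted p = 0.0214). The groups did not overlap for these 3 genes. The other 14 did not pass, and 11 of the 17 had a difference above zero, beside 43.1% of all transcript clusters.

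Of 24 NK and cytotoxic effector genes, 1 rose and 0 fell, with a median of 0.17. The 1 was Slamf7, a receptor of NK cells, plasma cells and activated macrophages (1.95 ± 0.45, adjusted p = 0.0204). It read 6.88 to 8.24 in day 3 resected glands, against 5.45 to 6.36 in mock glands. Of the 24, 18 had a difference above zero and 4 an unadjusted p under 0.05. Beside Slamf7 these were Il18rap (0.87 ± 0.28, adjusted p = 0.0927), Klrk1 (0.63 ± 0.29, 0.264) and Ctsw (0.56 ± 0.25, 0.258), named after their values were seen. Among 8 measured naive and memory T cell genes (10 listed), 1 rose and 0 fell (median 0.07). Il7r, the interleukin-7 receptor of lymphocytes, rose by 1.60 ± 0.32 (adjusted p = 0.00778), with 5.98, 5.62 and 6.21 in day 3 resected glands, against 4.54, 4.10 and 4.37 in mock glands. Of 16 regulatory T cell and checkpoint genes, 1 rose and 0 fell (median 0.20). It was Lrrc32, which anchors latent TGF-beta on regulatory T cells, platelets and other cells, at 1.32 ± 0.36 (adjusted p = 0.0460). Lrrc32 read 3.72, 3.87 and 5.01 in day 3 resected glands, against 3.14, 3.26 and 2.25 in mock glands, and is among the dimmest 30% of transcript clusters. All of these values except that of resected replicate 3 lay below the median of the negative-control rows. Without that array the difference was 0.91 (limma adjusted p = 0.183). No gene passed among 16 helper lineage factors and T cell cytokines (median -0.16, limma, 4 at an unadjusted p under 0.05), 8 gamma delta and innate lymphoid genes (-0.16, 1 gene) or 12 T cell attracting chemokines and receptors (0.28, 3 genes). The median over all transcript clusters was -0.06.

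**Figure D3:**
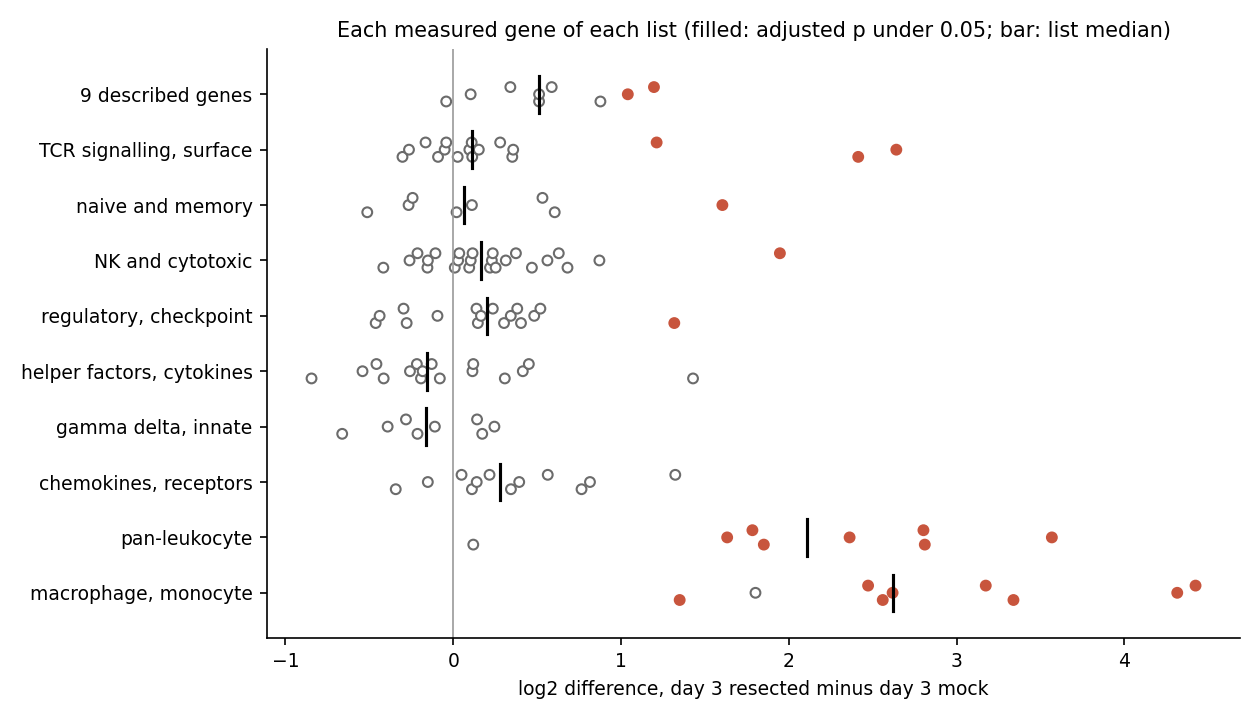
Log2 difference of every measured gene of each list, day 3 resected minus mock, with the list median as a bar and filled points for an adjusted p under 0.05. The 9 described genes have a median of 0.51 and lists of other T cell and NK genes lie between -0.16 and 0.28, while 7 of 8 pan-leukocyte and 8 of 9 macrophage and monocyte genes passed.

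Between the resected groups, 6 other genes of these lists were lower on day 14 than on day 3. They were Thy1 (-2.29 ± 0.53, adjusted p = 0.0204), Fyb (-2.19 ± 0.30, 4.83e-04), Lrrc32 (-1.43 ± 0.36, 0.0309), Il7r (-1.25 ± 0.32, 0.0331), the chemokine Cxcl16 (-1.21 ± 0.26, 0.0139) and Lcp2 (-1.14 ± 0.28, 0.0297). By list, that is 3 of 17 receptor signalling and surface genes, 1 of 8 naive and memory genes, 1 of 16 regulatory and checkpoint genes and 1 of 12 chemokines and receptors. The NK and cytotoxic, helper and gamma delta lists had 0 of 24, 0 of 16 and 0 of 8. These counts are to be read beside 4.88% of all transcript clusters called lower. Fyb passed in 9 of 9 fits that left out an array, Lrrc32 in 6, Il7r, Cxcl16 and Lcp2 in 5 each and Thy1 in 4. Leaving out day 3 resected replicate 3 or day 14 resected replicate 1 ended the call of all of these except Fyb. Il7r and Lcp2 also lost the call after quantile normalisation, and Il7r with only the groups compared. Slamf7 did not pass the threshold (-1.61 ± 0.45, adjusted p = 0.0538). Against mock, 0 of the genes of these 7 lists passed on day 14 (limma), beside 0.153% of all transcript clusters. At an unadjusted p under 0.05 there were 3, beside 8.18% of all transcript clusters. They were 2 of 12 chemokines and receptors, Ccl22 (1.05 ± 0.26) and Ccl17 (0.91 ± 0.27), and 1 of 16 helper factors and cytokines, Lta (0.72 ± 0.25). These were named after their values were seen, and each of the other lists had 0.

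Markers of other cell types also differed between day 3 resected and mock glands, and their part in the values above was not tested. Counts of the marker lists are to be read beside 4.92% of all transcript clusters called higher and 1.36% called lower. Of 11 epithelial genes, 2 fell and 1 rose. The 11 include Car6, Klk1, Pip and Prol1, which lie at the ceiling of the file, where a change cannot be seen. The growth factor gene Egf, made by duct cells of this gland, fell by 2.94 ± 0.59 (adjusted p = 0.00917), the acinar factor Bhlha15 fell by 1.19 ± 0.31 (0.0386), and the duct keratin Krt19 rose by 1.04 ± 0.27 (0.0366). Krt19 read 4.57, 5.50 and 5.23 in day 3 resected glands, against 4.30, 4.22 and 3.66 in mock glands. Its mock values and that of resected replicate 1 lay below the median of the negative-control rows. The other keratins of the list did not pass. Of 8 pan-leukocyte genes, 7 rose (median 2.11), and their mean level was 10.44 to 11.24 in day 3 resected glands, against 8.37 to 8.94 in mock glands. Of 9 measured macrophage and monocyte genes, 8 rose (median 2.62), with a mean level of 11.03 to 11.68 in day 3 resected glands, against 8.02 to 8.65 in mock glands. Neutrophil genes had 4 of 7 that rose, with a mean level of 5.22 to 6.52 in day 3 resected glands, against 4.19 to 4.28 in mock glands. Mast cell genes had 3 of 10 that rose (Cpa3, Mcpt4 and Tpsb2), with a mean level of 5.12 to 5.20 in day 3 resected glands, against 4.39 to 4.71 in mock glands. Day 3 resected replicate 3, highest for 5 of the lymphocyte genes, was also the highest of the 9 arrays in the pan-leukocyte, macrophage and neutrophil lists, and mock replicate 3 was the lowest in the first 2 of these.

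Markers of B cells and of lymph node were checked because lymph nodes lie against this gland. Counts on day 3 are again to be read beside 4.92% of all transcript clusters called higher and 1.36% called lower. Among 9 B cell genes, 1 rose, Cd37, which other leukocytes also express, and the mean level was 4.30 to 4.37 in day 3 resected glands, against 4.09 to 4.17 in mock glands. The B cell gene Ms4a1 read 2.67 to 2.94 in day 3 resected glands, against 2.56 to 3.12 in mock glands. Of 8 lymph node genes, 1 rose, the chemokine Cxcl13, and the mean level was 5.11 to 5.28 in day 3 resected glands, against 4.53 to 4.91 in mock glands. Ccl21a, the T cell zone chemokine, read 9.87, 9.09 and 9.86 in day 3 resected glands, against 9.47, 8.83 and 8.25 in mock glands, and Glycam1, a marker of high endothelial venules named after its values were seen, was between 2.60 and 3.34 on all 9 arrays. Of 10 dendritic cell genes, 1 rose, Cd209a, and the mean level was 4.28 to 4.64 in day 3 resected glands, against 3.72 to 4.20 in mock glands. Plasmacytoid dendritic cell genes had 0 of 6 that passed (1 at an unadjusted p under 0.05). Plasma cell genes had 1 of 8 that fell, Jchain. All 11 measured genes of cell division rose (median 3.60), and their mean level was 10.32 to 11.40 in day 3 resected glands, against 7.99, 8.18 and 6.18 in mock glands, with mock replicate 3 again the lowest of its group. On day 14, 0 genes of these marker lists passed the test against mock (limma), beside 0.153% of all transcript clusters. Between the resected groups, 4.88% of all transcript clusters were called lower on day 14. That held for 8 of 8 pan-leukocyte, 9 of 9 macrophage, 11 of 11 cell division and 3 of 7 neutrophil genes. Of the B cell genes 1 was lower and 1 higher, and the same held for lymph node genes. Called higher were 2 of 11 epithelial and 1 of 8 plasma cell genes, and 0 mast cell or dendritic cell genes passed.

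**Figure D4:**
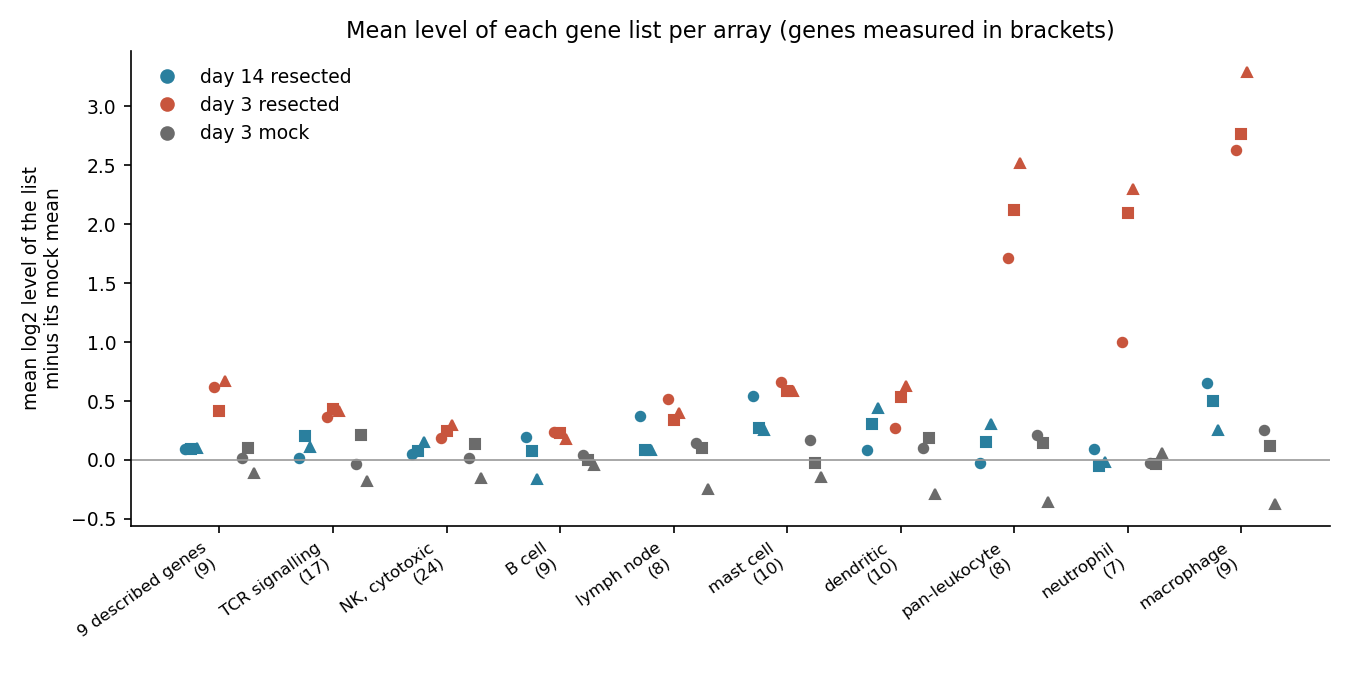
Mean log2 level of each gene list per array minus the list's mean in the mock glands, with the number of genes measured in brackets; day 14 resected, day 3 resected and mock arrays run from left to right within each list, and marker shapes give the replicate number. All 3 day 3 resected arrays lie above the other 6 for the 9 lymphocyte genes. The same holds for the TCR signalling, NK and cytotoxic, mast cell, pan-leukocyte, neutrophil and macrophage lists, but not for the B cell, lymph node and dendritic lists. The shifts of the lists were not tested against each other.

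The calls of Cd3e and Gzma changed when single arrays were left out. Cd3e lost its call on day 3 in 4 of 9 such fits, those that left out replicates 1 and 3 of the mock glands and replicates 2 and 3 of the day 3 resected glands (0.89 to 0.99, adjusted p 0.0859 to 0.128) and with only the groups compared (adjusted p = 0.0526). Gzma lost it against mock in 5 of 9 such fits, those that left out replicates 2 and 3 of the mock glands, replicates 2 and 3 of the day 3 resected glands and replicate 3 of day 14 (0.91 to 1.34, adjusted p 0.0566 to 0.177), after quantile normalisation (1.04, adjusted p = 0.0760) and with only the groups compared (0.0674). Between the resected groups Gzma kept its call in 1 of 9 fits that left out an array, the one without mock replicate 3, and the difference ran from -1.31 to -0.87 over the 9 fits. It also lost the call after quantile normalisation (adjusted p = 0.0827). Every alternative run that kept the gene left Cd3e and Gzma higher in day 3 resected than in mock glands. Of the other genes called on day 3 against mock, Thy1, Fyb and Il7r passed in 9 of 9 fits that left out an array, Lcp2 in 6, Slamf7 in 5 and Lrrc32 in 1.

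**Figure D5:**
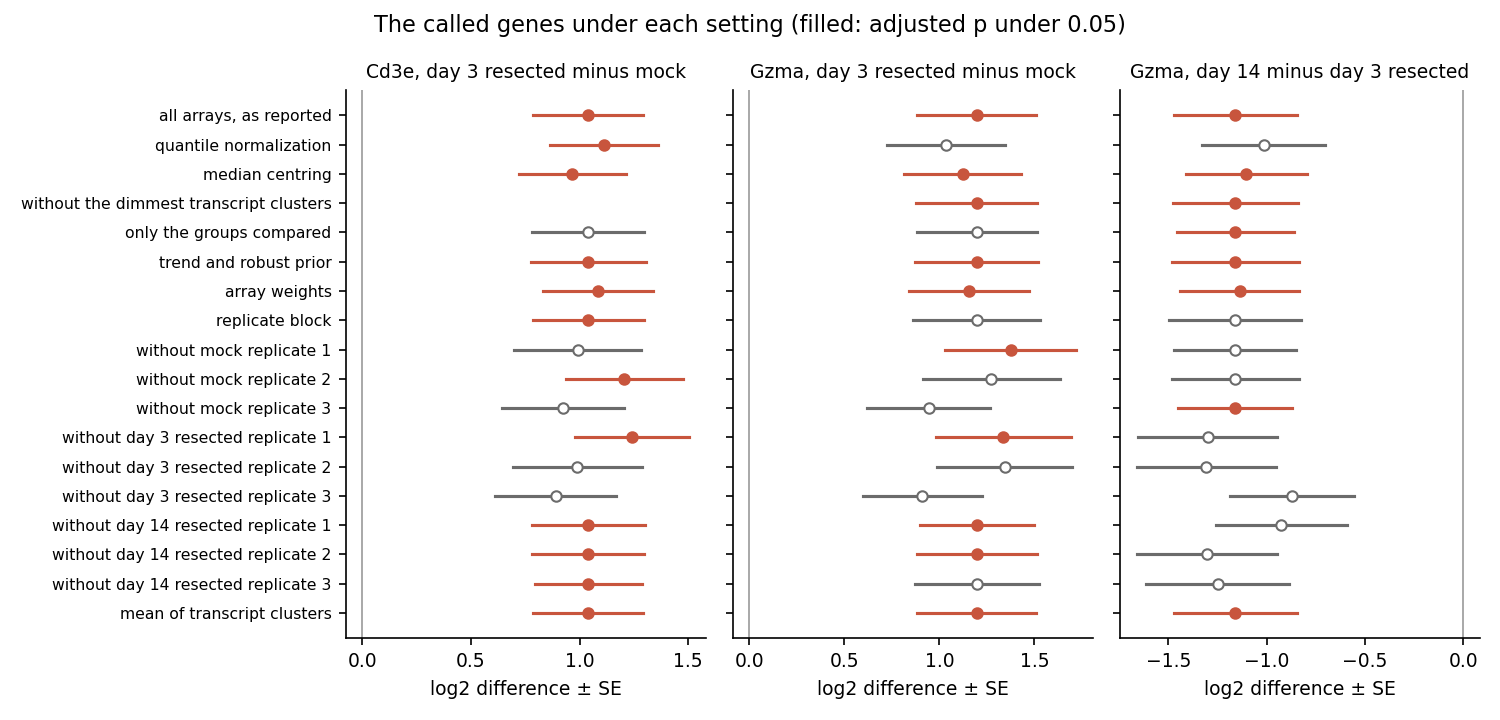
Log2 difference ± SE of the 3 called results under each setting, from all arrays to each array left out, with filled points for an adjusted p under 0.05. Each of the 3 results keeps its direction throughout and changes sides of the threshold in several settings. Cd3e has no value without the dimmest transcript clusters because that filter removes it.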

How the data were processed

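RNA of 9 salivary glands in 3 groups of 3 was measured on Clariom S arrays. The deposited values are log2 levels per transcript cluster, which the authors made with Transcriptome Analysis Console 4.0 and RMA, per the submitters' processing notes and the series' design text. The sources used here give no genome build, annotation version or detection calls. The highest value in the file is 19.93, which no lymphocyte gene reached. Of 28846 rows, 6640 control rows were left out of the tests and 22206 transcript clusters were tested. Symbols came from the platform's probe table, updated by Entrez identifier to RefSeq names of GRCm38.p6.

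Groups were compared with limma 3.58.1 in R 4.3.3, all 9 arrays in 1 fit (6 residual and 6.63 prior degrees of freedom), with two-sided p-values adjusted by Benjamini and Hochberg over all transcript clusters of a comparison and a threshold of 0.05. The fit was tested on simulated data. The number of arrays limits the precision. Replicates are the labels' biological replicates, and same-numbered arrays did not deviate together (r from -0.09 to 0.05), so no pairing was used. The genes, lists and tests were chosen with earlier results of these data known. Named genes were the 9 measured genes, list genes past the threshold (at most 5 a lymphocyte list and 4 a marker list in each comparison), the first 3 genes of marker lists, the 5 closest profiles and the exceptions marked in the text. Promoters are those of RefSeq. Alternatives were other scalings, a filter on the dimmest 30%, only the groups compared, trend with a robust prior, array weights, the replicate block, each array left out and the mean of a symbol's transcript clusters.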

Additional observations from a re-analysis of the deposited data

Results flagged for a closer look

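The contrast of day 14 with day 3 resected glands mixes the resection with the time after surgery, since day 14 has no mock glands. Among the 9 genes and the 7 lymphocyte lists, 7 genes passed in it (limma adjusted p under 0.05), all lower on day 14. By list, 1 of the 9 genes passed, 3 of 17 receptor signalling and surface genes and 1 of 8 naive and memory genes. So did 1 of 16 regulatory and checkpoint genes and 1 of 12 chemokines and receptors. The NK and cytotoxic, helper and gamma delta lists had 0 of 24, 0 of 16 and 0 of 8. These counts are to be read beside 6.28% of all transcript clusters called and 4.88% called lower. The 7 genes were Gzma (-1.16, adjusted p = 0.0466), Thy1 (-2.29, 0.0204), Fyb (-2.19, 4.83e-04), Lrrc32 (-1.43, 0.0309), Il7r (-1.25, 0.0331), Cxcl16 (-1.21, 0.0139) and Lcp2 (-1.14, 0.0297). Without 1 array, Fyb passed in 9 of 9 fits, Lrrc32 in 6, Il7r, Cxcl16 and Lcp2 in 5 each, Thy1 in 4 and Gzma in 1. Over the settings that ended a call, the adjusted p reached 0.0877 for Thy1, 0.143 for Il7r, 0.132 for Lcp2, 0.127 for Lrrc32, 0.0665 for Cxcl16 and 0.203 for Gzma. Against mock on day 3, Cxcl16 itself did not pass (0.76, adjusted p = 0.122). Groups of 3 arrays were too small for a test of single outlying arrays.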

How the results depend on the processing

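The number of lymphocyte genes called on day 3 against mock was 2, and 1 after quantile normalisation (Cd3e), without the dimmest transcript clusters (Gzma) and with the replicate block (Cd3e), 0 with only the groups compared, and 0 to 2 without 1 array. The dimness filter removes Cd3e, Cd3g and Cd8a. Against mock on day 14 the number was 0 under every alternative run. Between the resected groups it was 1, and 0 after quantile normalisation and with the replicate block, and 0 to 1 without 1 array. The cause of these changes was not tested.

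Reversed directions concerned differences near zero that did not pass. On day 3 against mock, Cd8a was 0.0594 after quantile normalisation and ran from -0.22 to 0.22 without 1 array, and Cd3d ran from -0.23 to 0.34. On day 14 against mock, Cd3d was -0.0124 after quantile normalisation and -0.0091 after median centring, Cd3g -7e-04 after median centring and Nkg7 -7e-04 after quantile normalisation. Without 1 array these ran from -0.25 to 0.23 for Cd3d, -0.18 to 0.24 for Cd3g, -0.25 to 0.10 for Cd8a, -0.22 to 0.27 for Gzma, -0.11 to 0.14 for Nkg7 and -0.15 to 0.39 for Klrd1. Between the resected groups, Cd3d was 0.0116 with array weights and Cd8a 0.0145 after median centring, and without 1 array Cd3d ran from -0.35 to 0.24 and Cd8a from -0.31 to 0.14.

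Same-numbered arrays of different groups correlated in their deviations at -0.09 to 0.05, so the reported fit has no replicate block. Among the 9 genes and the called genes of the lymphocyte lists, the block ended the calls of Gzma (adjusted p = 0.0677 against mock on day 3, 0.0765 between the resected groups), Il7r on day 14 against day 3 resected (adjusted p = 0.0586) and Lrrc32 (0.0755 against mock on day 3, 0.0539 between the resected groups), and changed no other. Over all transcript clusters, 1393 were called on day 3 against mock and 850 without day 3 resected replicate 3. On day 14 against mock 34 were called, and 77 with trend and robust prior, 58 without mock replicate 3, 20 and 22 without day 14 resected replicate 2 and 3. Between the resected groups 1394 were called, and 874 without day 3 resected replicate 3. All 9 genes, Gzma included, read below the 95th percentile of the negative-control rows on every array, which limits what can be seen of them. The limit is closest for the CD3 genes and Cd8a.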
